A study of Mus musculus with 10 samples.

Results

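Hyaluronan is a long unbranched sugar chain that synthase enzymes in the plasma membrane spin directly into the space around cells. Large proteoglycans of the hyalectan family, versican and aggrecan among them, bind it through link modules, link proteins lock that binding, and CD44 anchors the chain at the cell surface. In the developing heart such a matrix fills the cardiac jelly and the valve cushions, and in adult tissue it is known from injury and repair. The genes described here are 8 of the 23337 listed in a table of adult mouse left atrium. They were taken by name for their roles in this matrix, with earlier results of these data known. They are the synthases Has1 and Has2, the receptor Cd44, the hyalectans Vcan and Acan, the link and binding proteins Hapln1 and Tnfaip6, and the hyaluronidase Hyal2. All 8 were in the table, and 6 of them had enough reads to be tested.

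RNA was sequenced from the left atrium of 4 control animals, labelled wild type (Tbx5 +/+), and 6 labelled Tbx5 null (Tbx5-/-), all of a mixed C57B6 and 129 background. In the knockout animals a tamoxifen-inducible Cre from the R26 locus, active in all cell types and not only in cardiomyocytes, was used to remove exon 3 of Tbx5, which encodes a cardiac T-box transcription factor. The protocol gives 0.167 mg of tamoxifen per day for 3 days and dissection 1 week later. Whether control animals had the Cre or were given tamoxifen is not stated. The age is given as 8 to 10 weeks in one place and as 6 to 8 weeks in another. Of the controls 2 were female (F1 and F2) and 2 male (M1 and M2), and of the knockouts 3 were female (F1 to F3) and 3 male (M1 to M3).

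Each library held 5701670 to 7697556 counted reads. Tbx5 itself, counted over the whole gene and not over the removed exon, was higher in the libraries labelled knockout (1497 to 2460 normalized counts) than in the controls (785 to 1077), so the groups are named by their labels and every direction below rests on them. The atrial genes Myl7, Myl4 and Nppa were detected in every library and were all lower in the knockouts. Myl7 went from 61119 to 3793 on average, Myl4 from 56814 to 31687 and Nppa from 213896 to 104127. Levels are normalized counts, that is, reads divided by 1 size factor per library. A gene was called when its adjusted p (edgeR quasi-likelihood test, Benjamini-Hochberg over all 13191 tested genes) was under 0.05. Log2 fold changes set knockouts over controls, with ± for the standard error. In this comparison 20.8% of all tested genes were called higher and 21.8% lower (2741 and 2881 genes, or 3942 and 2020 with scaling to library size only). The libraries are bulk tissue, in which a change in the number of cells of a type and a change in RNA per cell cannot be told apart.

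Of the 6 tested genes, Cd44 and Vcan rose in the knockout libraries, none fell, and Has1, Has2, Tnfaip6 and Hyal2 did not pass. In the fits over all 10 libraries, no gene of the 6 was lower even at an unadjusted p under 0.05, by edgeR, DESeq2 or limma-voom. In the edgeR fit of females alone, chosen after the data were seen, 1 member was, namely Has2. The share called higher, 2 of 6, stands beside the 20.8% of all genes. The median log2 fold change was 0.43 over the 6 genes and -0.00092 over all tested genes. Cd44 and Vcan were also the only members whose lowest knockout exceeded the highest control, a separation that 16.3% of all tested genes showed upward and 15% downward.

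**Figure D1:**
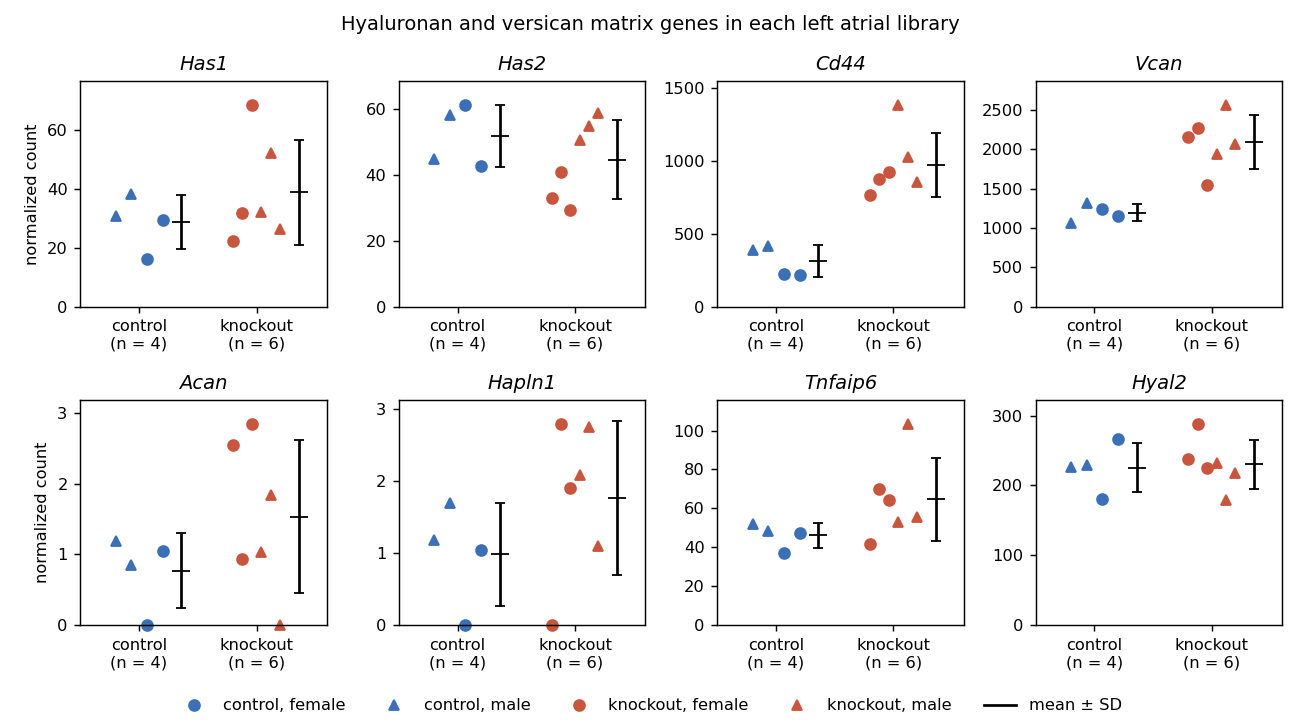
Normalized count (y axis, linear, from 0) of each of the 8 genes in the 4 control and 6 knockout libraries, with 1 point per library and bars for the mean ± SD. Cd44 and Vcan separate the groups, while the other 6 genes overlap between them and Acan and Hapln1 stay below 3 normalized counts.

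Cd44 encodes the main cell-surface receptor of hyaluronan, found on many cell types and carried in large amounts by leukocytes and activated mesenchymal cells. The gene lies on chromosome 2 (102811141 to 102901665, minus strand, GRCm38). Its control levels were 389 in M1, 418 in M2, 226 in F1 and 215 in F2. The knockout levels were 764 in F1, 872 in F2, 924 in F3, 1381 in M1, 1023 in M2 and 852 in M3. The lowest knockout library was therefore above the highest control, and knockout M1 stood highest. The mean went from 312 ± 106 (SD, n = 4) to 969 ± 219 (SD, n = 6), a fold of 3.05 and a log2 fold change of 1.61 ± 0.21 (edgeR adjusted p = 4.69e-05). Of the tested genes 97.2% had a smaller or more negative log2 fold change, which places Cd44 behind 374 others. Without knockout M1 the fold was 2.82, still past the threshold.

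The 2 male controls lay above the 2 female controls in Cd44, at 404 against 221 on average, and the knockout means were 1085 in males and 853 in females. Fitted within each labelled sex, a fit chosen after the data were seen, Cd44 rose by a log2 fold change of 1.42 in males (edgeR adjusted p = 0.00573) and 1.93 in females (edgeR adjusted p = 4.7e-07). The difference between the sexes, male minus female, was -0.52 ± 0.26 on the log2 scale and did not pass (edgeR interaction, adjusted p = 0.711). No member passed that interaction test, in which 0.205% of all tested genes were called, and none had an unadjusted p under 0.05. There were only 2 control animals of each sex.

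Vcan encodes versican, the large chondroitin sulfate proteoglycan that fills provisional matrix around hyaluronan and is known from valve cushions, vessel walls and wounds. It lies on chromosome 13 (89655312 to 89742509, minus strand). Controls held 1065 (M1), 1312 (M2), 1242 (F1) and 1145 (F2) normalized counts. Knockouts held 2160 (F1), 2269 (F2), 1545 (F3), 1941 (M1), 2559 (M2) and 2066 (M3). The controls were tightly grouped, knockout F3 came closest to them and knockout M2 was farthest. The mean rose from 1191 ± 108 (SD, n = 4) to 2090 ± 340 (SD, n = 6), a fold of 1.72 and a log2 fold change of 0.79 ± 0.12 (edgeR adjusted p = 0.000218). With offsets for the GC content and transcript length of each gene, chosen after the data were seen, the log2 fold change was larger, at 1.26 ± 0.14 (adjusted p = 1.58e-05). The counts are per gene, so the splice forms of versican, which differ in how many chondroitin sulfate chains they carry, were not told apart.

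Acan, which encodes the cartilage hyalectan aggrecan (chromosome 7, 79053483 to 79115099), was at the edge of detection. Its raw reads ran from 0 to 3 per library, with none in control F1 and knockout M3. The 4 controls held 3 reads together and the 6 knockouts 10. A count of 0 allows up to 3 reads, or 0.390 to 0.526 CPM (reads scaled to a common library total) at these depths, so no change was detectable. Acan was left out of the test by the filter on low counts.

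The regions just upstream of Cd44 and Vcan are shown because these are the members that passed the threshold. That of Tnfaip6 is shown because, among the members, its window alone held an AP-1 letter match, which was seen before it was chosen. Each is the 250 bases before the annotated RefSeq start (GRCm38.p6), printed 5′ to 3′ on the gene's strand, with capitals for motif matches.
Cd44, chr2:102901666-102901915, minus strand: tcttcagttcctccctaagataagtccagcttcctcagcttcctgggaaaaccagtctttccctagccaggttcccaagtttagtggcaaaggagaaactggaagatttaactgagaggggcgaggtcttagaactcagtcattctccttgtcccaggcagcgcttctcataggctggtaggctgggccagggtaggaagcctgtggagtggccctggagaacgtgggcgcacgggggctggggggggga
Vcan, chr13:89742513-89742762, minus strand: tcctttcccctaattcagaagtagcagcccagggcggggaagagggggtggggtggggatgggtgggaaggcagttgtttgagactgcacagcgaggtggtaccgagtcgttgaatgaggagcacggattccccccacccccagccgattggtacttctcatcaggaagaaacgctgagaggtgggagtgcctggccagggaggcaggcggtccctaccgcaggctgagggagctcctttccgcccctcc
Tnfaip6, chr2:52037863-52038112, plus strand: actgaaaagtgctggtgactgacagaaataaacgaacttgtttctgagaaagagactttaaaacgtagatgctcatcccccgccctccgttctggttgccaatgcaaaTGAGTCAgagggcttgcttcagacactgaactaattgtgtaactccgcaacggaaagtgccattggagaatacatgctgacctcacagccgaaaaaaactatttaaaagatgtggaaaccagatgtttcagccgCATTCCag

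Searches covered both strands of these windows, which were found in RefSeq for 7 of the 8 members. The T-box letters AGGTGT was in none of the 7 windows, against 11.8% of the 32851 upstream windows of the same length. The AP-1 letters TGANTCA stood in the Tnfaip6 window, 142 to 136 bases before the start, and in 6.75% of all windows. The TEAD letters GGAATG, read as CATTCC on the other strand, stood 8 to 3 bases before the start of Tnfaip6, and also in the Hyal2 and Acan windows, against 12.6% of all windows. These starts are those of RefSeq and can differ from the GENCODE gene positions given for the members. The Tnfaip6 window runs past the GENCODE start at 52038009, and the Hyal2 and Hapln1 windows lie inside their GENCODE genes. The Cd44 and Vcan windows held none of the searched letters. A match of letters is a description and not a bound site, and its absence covers only this window.

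Hapln1 encodes the link protein that clamps hyalectans to hyaluronan, and its gene lies next to Vcan on chromosome 13 (89539796 to 89611652, plus strand), 43659 bp away. Despite that position the neighbours differed greatly in level. Vcan had 901 to 2793 raw reads per library and Hapln1 had 0 to 3, with none in control F1 and knockout F1. Each hyalectan gene of the mouse lies beside a link protein gene, and none of the other pairs reached high counts either: Hapln3 beside Acan had 1 to 17 reads per library, Hapln4 beside Ncan 0 to 8, and Hapln2 beside Bcan 0. Versican was thus the only hyalectan with more than 6 reads in any library.

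Tnfaip6 encodes TSG-6, a secreted protein induced in inflammation that binds hyaluronan and moves heavy chains of inter-alpha-trypsin inhibitor onto it (chromosome 2, 52038009 to 52056686). Controls held 52.0 (M1), 48.3 (M2), 37.0 (F1) and 47.1 (F2). Knockouts ran from 41.7 in F1 over a median of 60.1 to 103.5 in M2. Knockout F1 lay within the control range and the other 5 knockouts above it. The means were 46.1 ± 6.41 (SD, n = 4) and 64.7 ± 21.4 (SD, n = 6), a log2 fold change of 0.46 ± 0.22 that did not pass (edgeR adjusted p = 0.113, 95% interval -0.019 to 0.94). It did pass without knockout F1 (log2 0.56, adjusted p = 0.0457) and with scaling to library size only (log2 0.60, adjusted p = 0.0487), a scaling that moves the median of all genes to 0.14. Without knockout M2 it was 0.28 (adjusted p = 0.237). In the authors' deposited table its adjusted p was 0.112.

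Has1 and Has2 encode plasma membrane enzymes that make hyaluronan, with Has2 the one known to be needed for the cardiac jelly and the valve cushions. Has1 (chromosome 17, 17843323 to 17855205) stood at 30.7, 38.1, 16.2 and 29.3 in control M1, M2, F1 and F2. In the knockouts it ran from 22.1 in F1 over a median of 31.9 to 68.3 in F3. The ranges overlapped, with knockouts F3 and M2 above every control. The log2 fold change was 0.40 ± 0.32 (edgeR adjusted p = 0.343) with a 95% interval from -0.30 to 1.095, which holds a small fall as well as a rise of about 2-fold. It was 0.18 without knockout F3 and 0.23 without control F1, and 0.09 in males alone and 0.79 in females alone, none past the threshold.

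Has2 (chromosome 15, 56665627 to 56694539) was at 44.9 in control M1, 58.4 in M2, 61.3 in F1 and 42.9 in F2. The knockouts divided by labelled sex, with females at 33.2, 40.9 and 29.4 and males at 50.8, 55.0 and 58.9. All 3 female knockouts were below every control, and all 3 males were within the control range. Over both sexes the log2 fold change was -0.25 ± 0.21 (edgeR adjusted p = 0.369, 95% interval -0.70 to 0.21). It was -0.61 ± 0.25 in females alone (edgeR adjusted p = 0.0762) and 0.07 ± 0.24 in males alone (edgeR adjusted p = 0.874), fits chosen after the data were seen, and the difference of 0.67 ± 0.34 did not pass (adjusted p = 0.736). A non-coding antisense gene, Has2os, shares 182 bp of exon with Has2, and as the strand setting of the counting is not given, its reads may be included.

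Has3, the third synthase and not among the 8 genes, did change. It fell from 73.3 ± 5.16 (SD, n = 4) to 40.0 ± 8.72 (SD, n = 6), a log2 fold change of -0.90 ± 0.17 (edgeR adjusted p = 0.000665), with every knockout library (30.4 to 52.4) below every control (67.1 to 78.0). Levels of different genes were compared per kilobase of annotated exon. On that scale the controls held 12.2 ± 2.20 of Has2, 11.5 ± 0.809 of Has3 and 6.33 ± 2.02 of Has1, so that Has2 and Has3 differed by less than their spread. The knockouts held 10.6 ± 2.84 of Has2, 8.58 ± 3.94 of Has1 and 6.28 ± 1.37 of Has3. The mean share of Has3 in the sum of the synthases went from 38.4% to 25.1%. Its ranges did not overlap, at 35.2% to 41.3% in controls and 17.7% to 29.5% in knockouts. The sum itself went from 30.1 ± 2.93 to 25.4 ± 4.53, with overlapping ranges. No test was made of the share or the sum.

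**Figure D2:**
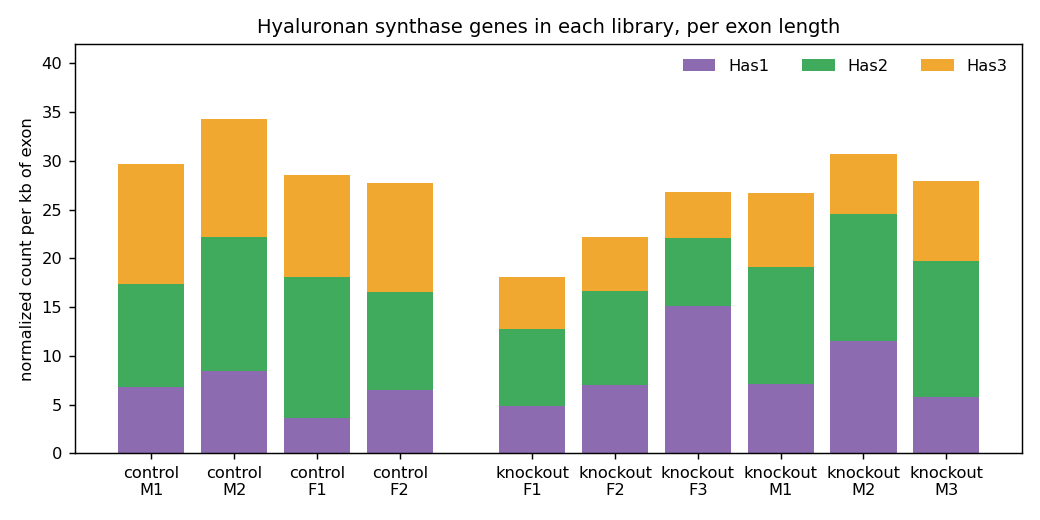
Normalized count per kilobase of annotated exon (y axis) of the 3 hyaluronan synthase genes, stacked, in each of the 4 control and 6 knockout libraries (x axis). The Has3 segment is shorter in every knockout library than in any control, while Has1 varies most among the knockouts.

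Hyal2 encodes a membrane-anchored hyaluronidase that cuts long hyaluronan into large fragments (chromosome 9, 107567945 to 107572779). Controls were at 226, 229, 180 and 267 in M1, M2, F1 and F2. Knockouts ran from 179.6 in M2 over a median of 229 to 288 in F2. The groups covered nearly the same range. The means were 226 ± 35.3 (SD, n = 4) and 230.1 ± 35.1 (SD, n = 6), and the log2 fold change was 0.0039 ± 0.13 (edgeR adjusted p = 0.985). Its 95% interval, -0.28 to 0.29, was the narrowest among the members that did not pass.

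Per kilobase of exon, the controls ranked Vcan (82.4 ± 7.49), Hyal2 (68.5 ± 10.7), Cd44 (46.1 ± 15.7), Tnfaip6 (27.0 ± 3.75), Has2 (12.2 ± 2.20) and Has1 (6.33 ± 2.02). Hapln1 and Acan came last, at 0.166 and 0.103. In the knockouts Vcan (145 ± 23.5) and Cd44 (143 ± 32.3) stood level within their spread, ahead of Hyal2 (69.9 ± 10.7), Tnfaip6 (37.8 ± 12.5), Has2 (10.6 ± 2.84) and Has1 (8.58 ± 3.94), of which the last pair did not differ beyond its spread. The annotated exon length counts the exons of every isoform, so the order between genes is approximate.

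Ratios between members within a library do not depend on how libraries are scaled, apart from the 0.5 added to the raw counts. The log2 ratio of Has1 to Has2 was -0.89 ± 0.66 in the 4 controls (SD) and -0.27 ± 0.80 in the 6 knockouts, a difference of 0.62 (exact two-sided permutation p = 0.305, adjusted 0.895 over 4 ratios). That difference was 0.29 without control F1 and 0.33 without knockout F3. That of Hyal2 to the sum of Has1 and Has2 was 1.48 ± 0.31 and 1.47 ± 0.50, a difference of -0.0018 (exact permutation p = 0.995). The ratios of Hapln1 and Acan to Vcan rest on 0 to 3 reads of the smaller gene, and differed by -0.33 and -0.27 (exact permutation p = 0.643 and 0.671, each adjusted to 0.895). They depend on the added value: with 1 in place of 0.5 the differences were -0.46 and -0.41, and with 0.1 they were -0.064 and 0.014. The smallest p that the 210 assignments of 10 libraries can give is 0.00476.

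The wider machinery was read from 67 further genes of hyaluronan and proteoglycan metabolism in the table. They were chosen by role, with earlier results of these data known. Of these 53 were tested, 24 rose, 6 fell and 23 did not pass, with a median log2 fold change of 0.34, beside 20.8% higher and 21.8% lower over all tested genes. In every list at least as many genes rose as fell. Among the precursor and synthesis genes 2 of 8 rose and 2 fell. Ugdh, which makes the glucuronic acid donor used for hyaluronan and chondroitin sulfate, rose from 229.5 ± 31.0 to 421 ± 84.2, and Ugp2, one step upstream, from 1835 ± 91.6 to 2427 ± 171. Gfpt2, an enzyme of the hexosamine branch, had a log2 fold change of -0.39 ± 0.13 (edgeR adjusted p = 0.0297), which was lost with upper-quartile scaling, among other settings.

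Hyaluronan breakdown held the largest change of these genes. Rises were called for 5 of the 6 tested and falls for none, beside 20.8% and 21.8% of all tested genes. The table's 9930013L23Rik is the older symbol of Cemip (chromosome 7, 83932857 to 84086502), also known as Kiaa1199 or Hybid, whose product is needed for hyaluronan depolymerisation in fibroblasts. Its raw reads were 4, 2, 1 and 2 in control M1, M2, F1 and F2. In the knockouts they were 58 (F1), 116 (F2), 37 (F3), 87 (M1), 193 (M2) and 53 (M3). Every knockout library was thus far above every control, and the log2 fold change was 5.10 ± 0.61 (edgeR adjusted p = 2.4e-05). With so few control reads, the gene cleared the filter on low counts only through the knockouts, so that its being tested depended on its rise. The few control reads also leave the size of the change uncertain, and the authors' deposited table gives 3.76. Its relative Tmem2, which encodes a cell-surface hyaluronidase, rose 1.40-fold. Gusb, a lysosomal enzyme that trims hyaluronan fragments, rose 1.72-fold. Hyal1, the lysosomal hyaluronidase neighbouring Hyal2, did not pass (log2 -0.29 ± 0.19, edgeR adjusted p = 0.25).

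Other receptors and CD44 partners rose in 5 of 9 tested cases and none fell, beside 20.8% higher and 21.8% lower over all tested genes. Hmmr, a hyaluronan-binding protein that also works on the mitotic spindle, went from 8.78 ± 6.63 to 73.3 ± 32.0. Its control levels were low (2.09 to 16.6), and it needed the knockouts to clear the filter on low counts. Tlr2, a receptor that can respond to matrix fragments, went from 82.6 ± 13.8 to 170 ± 20.6. Moesin (Msn) and ezrin (Ezr), which tie CD44 to the actin cortex, rose 1.75-fold and 1.41-fold. Radixin (Rdx), of the same family, had a log2 fold change of -0.33 ± 0.13 and did not pass (edgeR adjusted p = 0.0533). The lymphatic hyaluronan receptor Lyve1 did not pass (log2 0.26 ± 0.18, edgeR adjusted p = 0.256).

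Among hyalectans, link proteins and cross-linkers only 4 of 12 genes had enough reads, and 2 of these rose, beside 20.8% of all tested genes. Ptx3, a pentraxin that works with TSG-6 in cross-linking hyaluronan, went from 12.3 ± 4.32 to 67.8 ± 32.9 (log2 2.41 ± 0.37, edgeR adjusted p = 0.000153). Itih5, of the inter-alpha-trypsin inhibitor heavy chain family, went from 309 ± 117 to 721 ± 142. Itih2 did not pass (log2 0.40 ± 0.28, edgeR adjusted p = 0.268). 

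Of the proteases that cut versican and aggrecan and their cofactors 2 of 7 were higher and 2 lower, near the 20.8% and 21.8% of all genes. Among the 6 tested proteases alone 2 were higher and 1 lower. Adamts1, a versican-cleaving protease, rose from 505 ± 57.3 to 1915 ± 952 (log2 1.90 ± 0.30, edgeR adjusted p = 0.000197). Adamts4 had a log2 fold change of 0.87 ± 0.32 (edgeR adjusted p = 0.0388) and lost its call under 9 of 20 alternatives. Adamts15 fell from 718 ± 172 to 389 ± 79.9. Fbln1, the fibulin that acts as a cofactor of ADAMTS1, fell from 2405 ± 262 to 1328 ± 177 (log2 -0.88 ± 0.11, edgeR adjusted p = 3.49e-05). Adamts5 and Adamts9 were at log2 0.0014 and 0.05 and did not pass. In chondroitin sulfate chain synthesis 8 of 19 genes rose and 2 fell. The chain polymerising enzymes Chsy1, Chpf and Chpf2 rose 1.65-fold, 1.85-fold and 1.56-fold, and Dse, the epimerase that turns chondroitin into dermatan sulfate, 1.78-fold.

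**Figure D3:**
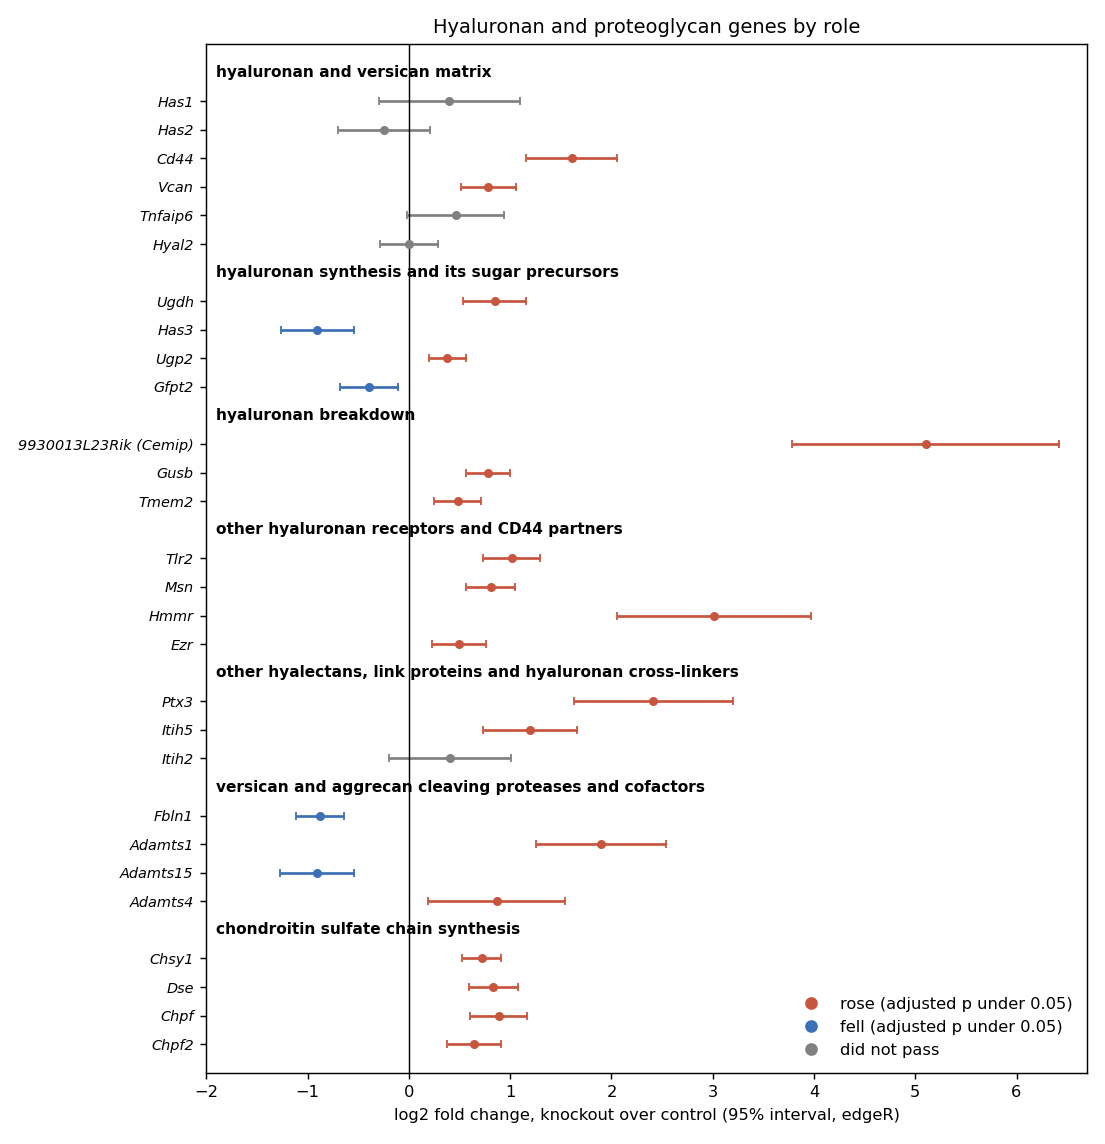
Log2 fold change, knockout over control, with its 95% interval (x axis) for the 6 tested hyaluronan and versican matrix genes and for named genes of each further list (y axis, grouped by role). Cd44 and Vcan lie to the right of 0, the other 4 members have intervals that include 0, and Cemip (9930013L23Rik) lies farthest to the right at 5.10.

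Markers of the cells in the sample were read beside these changes. Over all tested genes 20.8% were called higher and 21.8% lower. Single genes whose groups did not overlap made up 16.3% upward and 15% downward. All 8 tested macrophage markers rose, and their summed level went from 3617 to 4927 in controls to 7806 to 11647 in knockouts, with none at 0. Of 6 markers of activated fibroblasts 5 rose and none fell, and the sum went from 1065 to 1899 to 5245 to 16157. The 8 general fibroblast markers included 5 rises and 2 falls, and their sums overlapped, at 41005 to 44890 in controls and 38868 to 51147 in knockouts. Gsn, the gene of the actin-severing protein gelsolin, made up 59.0% of the control sum and fell. Without it the sums did not overlap, at 16672 to 18724 in controls and 24213 to 31095 in knockouts. The 6 cardiomyocyte markers summed to 633611 to 818359 in controls and 336823 to 479265 in knockouts, with 2 higher and 2 lower. Most of that drop was Ttn, the gene of the sarcomere spring titin, and without it the sums overlapped, at 267344 to 309619 and 221086 to 298948. Sums without the most abundant gene of a list were computed after the values were seen.

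Cd44 and Vcan differed in which knockout library was highest. Knockout M2 had the highest macrophage sum, the highest activated fibroblast sum and the highest Vcan level. Knockout F3 had the lowest activated fibroblast sum of the knockouts and the lowest Vcan level, with a macrophage sum of 8725 that was exceeded only by that of M2. Cd44 peaked in knockout M1 instead, whose macrophage sum of 8385 and activated fibroblast sum of 6967 were not the highest. The part of these cell types in the rises of Cd44 and Vcan was not tested.

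**Figure D4:**
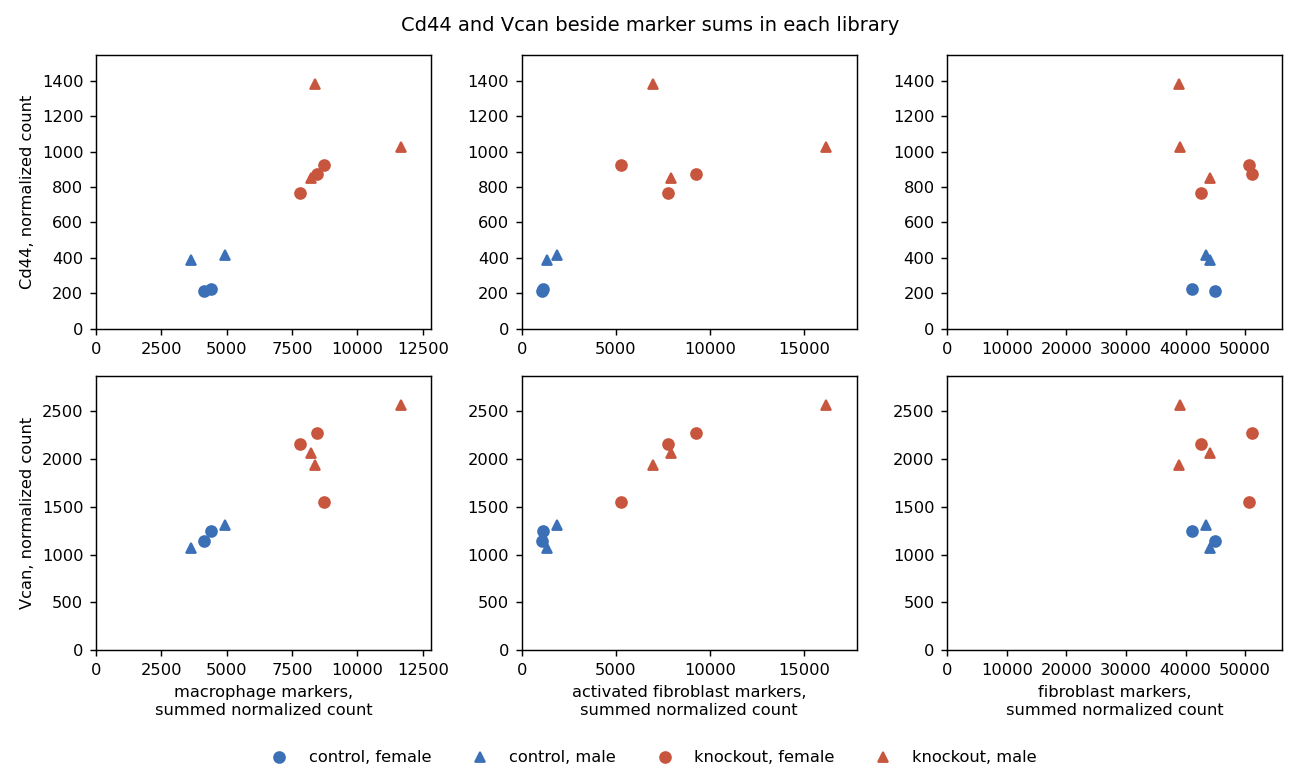
Normalized counts of Cd44 (top) and Vcan (bottom) on the y axis against the summed normalized counts of macrophage, activated fibroblast and general fibroblast markers (x axes), with 1 point per library. The groups separate along the macrophage and activated fibroblast sums, and overlap along the general fibroblast sum, which they do not when Gsn is left out of it.

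Markers of other cells that could lie in the sample were read in the same way, and several of their sums also separated the groups. Beside their counts stand the 20.8% of all tested genes called higher and the 21.8% called lower. Of single genes, 16.3% separated the groups upward and 15% downward. Neutrophil markers summed to 8.1 to 25.1 in controls and 29.0 to 50.4 in knockouts, with 2 of 2 tested genes higher. These were S100a9 (2.31 to 8.47 in controls) and Csf3r (5.08 to 14.6 in controls). Both needed the knockouts to clear the filter on low counts, so that their being tested depended on their rise. S100a8 and Retnlg were not tested. No lymphocyte marker was tested, since they summed to at most 21.2. Of 5 vascular endothelial markers 3 were called higher and 1 lower, of 4 endocardial ones 2 and 2, and of 4 lymphatic ones 1 and 1, with Ccl21a at 0 in every library. The vascular sums were 5841 to 6652 in controls and 6858 to 7541 in knockouts, and overlapped without Pecam1. The endocardial sums were 8781 to 10046.5 in controls and 11246 to 13974 in knockouts. Without Vwf they went the other way, from 4856 to 6096 in controls to 3620 to 3992 in knockouts. No marker of the remaining lists fell. Rises were called for 3 of 6 genes of smooth muscle and pericytes, 1 of 8 of mesothelium and epicardium, and 1 of 3 tested of cartilage and valve matrix, with Sox9 the gene that rose and Col2a1 below 5 normalized counts throughout. The smooth muscle and pericyte sums met, at 2071 to 2937 in controls and 2934 to 3345 in knockouts. Without Rgs5 they did not, at 880 to 1328 and 1687 to 2046.

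Variation of the members from library to library, with the group means removed, had no common pattern. Over the 10 libraries, which share depth and tissue makeup within each sample, Pearson correlations of centred log2 CPM between members ran from -0.51 (Has2 and Hyal2) to 0.69 (Has1 and Tnfaip6), and that of Cd44 and Vcan was -0.08. These are descriptions of few libraries. Profiles were ranked over 12211 tested genes. Symbols made of Gm and digits or ending in Rik, 9930013L23Rik (Cemip) among them, were left out. Among the ranked genes, the profiles nearest to Cd44 were those of Nrxn3 (r = 0.97), Adamts3 (0.93) and Khdrbs1 (0.92). Nearest to Vcan were Npnt (0.97), which encodes the matrix protein nephronectin, Mtap6 (0.95) and Mybl1 (0.94). Nearest to Tnfaip6 were Nfam1, Ndfip2 and Thbs1 (each 0.94). Nearest to Has1 were Rad51l1 (0.92), Oas1b (0.90) and Psap (0.88), to Has2 Kif18a (0.92), Upk1b (0.90) and Eaf1 (0.89), and to Hyal2 Eya4 (0.94), Mtap7d3 (0.93) and Hps4 (0.92). They are the best of many genes over few libraries, and nothing further is read from them.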

How the data were processed

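Per the labels' protocols, left atrial RNA from 10 mice gave 51 bp single-end reads. They name both an mRNA kit and ribosomal-depleted total RNA. The build mm10 and the tools DESeq2, featureCounts, TopHat2 2.0.11 and FastQC are named in the submitters' processing notes. The annotation, the strand setting and the handling of shared reads were not given in the sources used here. The authors deposited raw counts per gene and a normalized signal, in which each library's counts are divided by its size factor. They also deposited a log2 fold change with its standard error, a linear fold (ratio), a test statistic (score), and p-values and adjusted p-values, per the file headers.

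All genes of the raw counts were fitted with edgeR 4.0.16 in R 4.3.3 (filterByExpr, TMM, quasi-likelihood F-test, no covariates, 13191 genes, Benjamini-Hochberg at 0.05). Standard errors were taken as log2 fold change over root F. The fit was tested on simulated data with 200 changed genes, far fewer than the 5622 called here. That test therefore does not cover scaling or false calls under so broad a change. Ratios used raw counts plus 0.5 and an exact permutation test. Positions and exon lengths came from GENCODE M21 (GRCm38, the assembly also called mm10), upstream sequences from RefSeq. Of the named genes, all 8 members are given, and of each further list up to 4 with the smallest adjusted p. Where fewer passed, the most abundant one that did not was added, and others are named beside them after their values were seen. One gene that this rule names is not reported here. Members, lists and tests were chosen with earlier results of these data known. Alternatives were other scalings, DESeq2 1.42.0, limma-voom (limma 3.58.1), other filters, sex or a replicate block as covariate and left-out libraries. GC and length offsets and fits within 1 sex were added after seeing the data. Replicates differed by more than sampling noise (lowest chi-square per degree of freedom 4.11), and the labels name separate animals. Totals of 5701670 to 7697556 counts leave genes with a few reads imprecise.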

Additional observations from a re-analysis of the deposited data

Results flagged for a closer look

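Library values were compared within each group by their gap to the nearest other library, for the 6 tested genes and the 4 ratios. Of 20 such groups 3 held a library that stood apart. The groups share genes and libraries, and some rest on very few reads, so this count cannot be set against a chance rate. The log2 ratio of Has1 to Has2 was -1.88 in control F1, below the other controls. The log2 ratio of Hapln1 to Vcan was -11.07 in control F1 and -12.31 in knockout F1, the libraries with no Hapln1 read.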

How the results depend on the processing

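Cd44 and Vcan kept their direction and their call under all 23 alternatives run, with log2 fold changes of 1.42 to 1.93 and 0.71 to 1.26. Over the 21 alternatives for counts, 2 or 3 of the tested members were higher, the third being Tnfaip6, and 0 lower. Of the further genes 19 to 27 were higher and 4 to 7 lower, and of all tested genes 4709 to 6085 were called. Of the 30 further genes called, 21 kept the call in every alternative run for them (9930013L23Rik and Tmem2 were not in the fit with GC and length offsets) and 9 lost it in at least 1, with no change of sign. With the replicate block 2 members were higher and 5411 genes were called. That block also takes up sex, and knockouts F3 and M3 have no control of the same name. Animals with the same name in both groups are different mice. Their names share a sex and a number. Their deviations correlated at -0.13 to 0.17, and 1 of 4 controls matched its own name best.

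Values near 0 changed sign. Hyal2 was at -0.0032 with sex as covariate, -0.073 without both control F1 and knockout M3, -0.13 with GC and length offsets and -0.12 in males alone. Leaving out 1 library at a time gave Hyal2 -0.069 to 0.117. Has2 was at 0.072 in males alone. The difference in the log2 ratio of Acan to Vcan was 0.014 with a pseudocount of 0.1. Leaving out 1 library at a time, the differences ran from -0.76 to 0.12 for Hapln1 to Vcan, from 0.29 to 0.80 for Has1 to Has2, from -0.13 to 0.14 for Hyal2 to Has1 plus Has2 and from -0.64 to 0.068 for Acan to Vcan. The cause was not tested.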
